A study of Homo sapiens with 24 samples.

Results

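The genes described here encode aminoacyl-tRNA synthetases, the enzymes that attach each amino acid to its tRNA. They were chosen by name, as 19 genes for the cytosolic enzymes (symbols that end in 1, and FARSA and FARSB) and 16 genes for the mitochondrial enzymes (symbols that end in 2). All 35 were found among the 60675 Ensembl identifiers of the count table. All samples were MIA PaCa-2, an established human line of pancreatic carcinoma cells. C/EBPδ-inducible cells (labelled CEBPD) were pooled from clones and hold a Tet-On vector that expresses CEBPD cDNA, marked by mVenus, when doxycycline is given, and CTRL cells hold the same vector lacking the cDNA, marked by mCherry. For each line 3 libraries were made per time point after 0, 8, 24 and 48 h with doxycycline (2 µg/mL), which gives 24 libraries in all. The labels give the dose for the 0 h samples as well, whereas the methods of the study describe these cells as untreated. There were no untreated cells at the later times, so time in culture and doxycycline cannot be told apart within a line, and only the comparison of both lines removes what they share. The replicates were wells seeded in parallel, and p-values measure the spread between such wells.

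Each cytosolic synthetase charges tRNAs for protein synthesis on cytosolic ribosomes, and the mitochondrial enzymes are separate nuclear-encoded proteins that are imported to translate the few mRNAs of the mitochondrial genome. Several cytosolic enzymes sit together in a large multisynthetase complex that is held together by the AIMP scaffold proteins. GARS1 and KARS1 serve both compartments from a single gene, and EPRS1 carries the enzymes for glutamate and proline in a single protein. Uncharged tRNA activates the kinase GCN2 and, through phosphorylated eIF2α, the translation of the transcription factor ATF4, which binds C/EBP-ATF response elements (CARE) as a dimer with a C/EBP family protein and raises many genes of amino acid uptake, synthesis and tRNA charging.

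The promoters of both classes were compared for this element. RefSeq windows (GRCh38.p14) of 300 bases, from 250 before to 50 after the start site, were present for 30 of the 35 genes, and were searched on both strands for the CARE motif TGATGNAA. It occurred in 7 of 16 cytosolic genes with a window (43.8%), in 1 of 14 mitochondrial genes (7.14%) and in 1217 of all 27305 genes with a window (4.46%). All 7 were among the 9 cytosolic genes with a window whose mRNA was higher at 8, 24 and 48 h in both lines (77.8%), a group chosen on the counts below, and none of the other 7 cytosolic genes with a window held it. The C/EBP motif TTGCGNAA was found in none of the 30 windows, so that no match overlapped another, and occurred in 1.08% of all genes. Each match is printed on the strand of the motif with 11 bases on either side, and the capitals mark the motif. A match of letters is a description and not evidence of binding, and the windows of YARS1, LARS1, VARS1, AARS2 and VARS2 were not analysed here.
TARS1: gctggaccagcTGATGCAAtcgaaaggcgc
GARS1: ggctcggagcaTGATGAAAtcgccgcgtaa
IARS1: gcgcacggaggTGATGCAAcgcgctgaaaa
CARS1: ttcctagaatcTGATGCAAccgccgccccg
MARS1: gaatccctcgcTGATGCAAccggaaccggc
AARS1: tctaacttggcTGATGCAActgcgagaaaa
NARS1: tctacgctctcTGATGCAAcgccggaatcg
YARS2: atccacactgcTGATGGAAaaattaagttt

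These windows lie at chr5:33440956-33440985 (TARS1, minus strand), chr7:30594834-30594863 (GARS1, minus), chr9:92293692-92293721 (IARS1, plus), chr11:3057407-3057436 (CARS1, plus), chr12:57488053-57488082 (MARS1, minus), chr16:70289675-70289704 (AARS1, plus), chr18:57621804-57621833 (NARS1, minus) and chr12:32756076-32756105 (YARS2, minus). Counted in the direction of the gene, with the start site as 1, the first base of the motif was at position -33 in GARS1, -13 in IARS1, -4 in MARS1, -2 in CARS1, 3 in TARS1 and 15 in NARS1. AARS1, at -187, and YARS2, at -197, were the exceptions to this place near the RefSeq start site. For AARS1 this depends on the start site used. In the gene annotation used for exon overlaps, AARS1 starts at base 70289707 on the minus strand. Its motif, between bases 70289686 and 70289693, lies just inside the gene there. The motif of YARS2 lies upstream of the gene in that annotation as well. The other positions also rest on the RefSeq start site and can differ with another start. The window of YARS2 was the single mitochondrial match, and YARS2 mRNA did not pass the test against 0 h at any time in either line.

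The libraries held between 12731237 and 22598595 counts (median 18959363.5). CEBPD itself averaged between 1.90 and 4.02 CPM (the count scaled to a common library total, with the TMM correction for library composition) in the CTRL groups. In C/EBPδ-inducible cells it was at 21.6 CPM at 0 h, 249 at 8 h, 307 at 24 h and 204 at 48 h, so that it was already higher than in CTRL cells before doxycycline (the count does not separate the construct from the gene). The keratins KRT8, KRT18 and KRT19, markers of epithelial cells, had no overlap between the lines in any library, with KRT8 between 1005 and 1594 CPM in CTRL cells and between 34.5 and 76.3 in C/EBPδ-inducible cells. EPCAM and CDH1, which mark epithelial junctions, reached at most 2.29 and 6.21 CPM, and VIM was between 5354 and 7008 CPM. Summed over 10 markers of leukocytes, endothelium, fibroblasts, hepatocytes, acinar and beta cells, no library reached more than 1.35 CPM in CTRL or 4.14 CPM in C/EBPδ-inducible cells, and CD3E, PRSS1 and INS had no count.

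At 0 h the cytosolic mRNAs were the more abundant class per length. Divided by the length of the main transcript, the median over the 19 cytosolic genes was 85.0 CPM per kb in CTRL and 92.2 in C/EBPδ-inducible cells, and the median over the 16 mitochondrial genes was 13.9 and 13.3 CPM per kb. The classes overlapped. In CTRL cells the cytosolic levels ran from 17.9 CPM per kb for CARS1, the cysteine enzyme, to 204 for WARS1, the tryptophan enzyme, followed by KARS1 (184), NARS1 (129) and GARS1 (123). The mitochondrial levels ran from 2.22 CPM per kb for SARS2 to 99.5 for IARS2, the isoleucine enzyme, which was above 12 cytosolic genes. KARS1 led in C/EBPδ-inducible cells at 202 CPM per kb, and WARS1 was the 15th of the 35 genes at 73.9. The lowest count of a cytosolic gene in any 0 h library was 824, and that of a mitochondrial gene, SARS2, was 61, so that small changes were less visible in the mitochondrial class. The median standard error of a log2 fold change in CTRL cells at 24 h was 0.0301 for cytosolic and 0.0507 for mitochondrial genes.

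The first question was how the mRNAs changed over time in each line. In CTRL cells, which lack the CEBPD cDNA, 10 of 19 cytosolic genes rose at 8 h, 13 rose at 24 h, and at 48 h 12 rose and 5 fell (edgeR's quasi-likelihood test, Benjamini-Hochberg adjusted p under 0.01). Of all genes tested, 0.905% were called higher at 8 h, 2.81% at 24 h and 15.2% at 48 h, and 0.793%, 3.25% and 14.7% were called lower. None of the 16 mitochondrial genes passed at 8 or 24 h, where at 24 h 4 of them had an unadjusted p under 0.05, 2 in each direction, and DESeq2 also called 0. At 8 h 2 had such a p, 1 in each direction, and DESeq2 again called 0. At 48 h 1 mitochondrial gene rose and 2 fell. The median log2 fold change of the cytosolic class was 0.24 at 8 h, 0.38 at 24 h and 0.50 at 48 h, and that of the mitochondrial class was 0.06, 0.01 and 0.02, while the median over all genes was 0.00 or 0.01. The 3 times share their 0 h libraries, so these are not independent comparisons.

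In C/EBPδ-inducible cells the class split was the same in direction over all members. At 48 h it was not seen in the medians of genes without overlapping exons, given below. At 8 h 11 cytosolic genes rose and 3 fell, at 24 h 11 rose and none fell, and at 48 h 12 rose and 2 fell. The shares of all genes called higher were 14.6%, 7.33% and 19.1%, and those called lower 15.8%, 8.14% and 19.5%. Of the mitochondrial genes 1 rose and 2 fell at 8 h, none passed at 24 h and 2 rose and 1 fell at 48 h. At 24 h 9 mitochondrial genes had an unadjusted p under 0.05, 7 of them higher, while DESeq2 called 0. The cytosolic median was 0.27 at 8 h, 0.22 at 24 h and 0.15 at 48 h on the log2 scale, and the mitochondrial median was -0.05, 0.08 and 0.06.

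**Figure D1:**
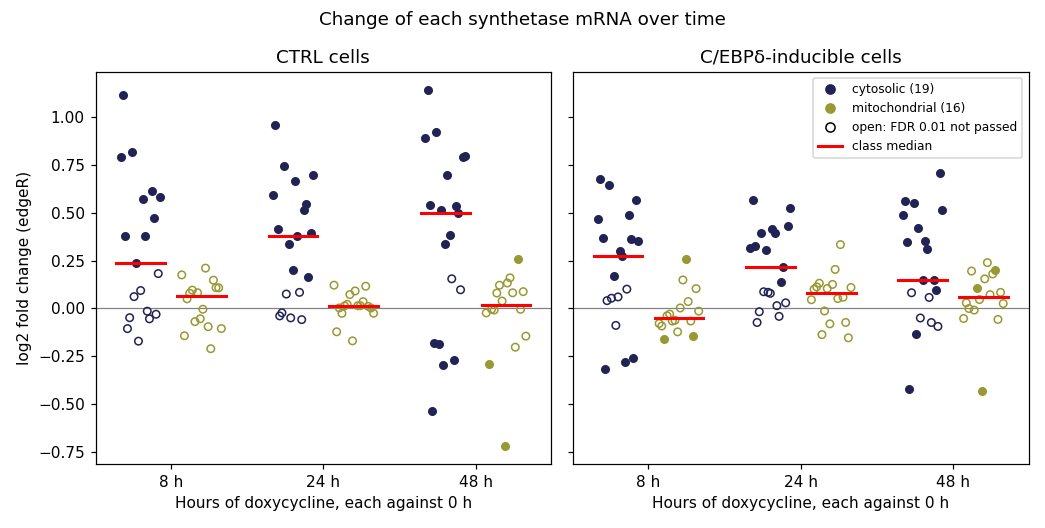
Log2 fold change of each synthetase mRNA against 0 h of its own line (y axis) at 8, 24 and 48 h of doxycycline (x axis), for CTRL cells on the left and C/EBPδ-inducible cells on the right. Each point is a gene, filled where the adjusted p was under 0.01, and red bars are class medians. In CTRL cells at 24 h the 13 filled points are all cytosolic, and the mitochondrial points lie between -0.17 and 0.12.

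The same 10 cytosolic genes were higher at all 3 times in CTRL and in C/EBPδ-inducible cells: AARS1, CARS1, EPRS1, GARS1, IARS1, MARS1, NARS1, SARS1, TARS1 and YARS1. Of the 14403 genes tested in all 6 comparisons, 0.403% were higher at all 3 times in both lines, and the share was 0.484% in CTRL and 2.74% in C/EBPδ-inducible cells alone. WARS1 joined them in C/EBPδ-inducible cells, and in CTRL cells it missed the threshold at 8 h (adjusted p = 0.0325). No mitochondrial gene was higher at all 3 times in either line. Each of the 16 mitochondrial genes has a cytosolic counterpart for the same amino acid, and in CTRL cells at 24 h the counterpart rose for 13 of the 16 while none of the mitochondrial genes did. The same held in C/EBPδ-inducible cells at 24 h for 11 of the 16. EPRS1 was counted for both glutamate and proline.

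Among the cytosolic genes CARS1 had the largest change at 24 h in both lines. It was at 46.2, 52.6 and 48.5 CPM in the 3 CTRL libraries at 0 h and at 91.9, 97.7 and 96.4 CPM at 24 h. It went from 64.4, 68.7 and 68.4 CPM to 103, 96.9 and 98.7 CPM in C/EBPδ-inducible cells. The libraries at 24 h lay above those at 0 h in both lines, and the levels of the lines overlapped at 24 h. The log2 fold change was 0.96 (SE 0.047, adjusted p = 2.05e-11) in CTRL and 0.57 (SE 0.041, adjusted p = 1.16e-10) in C/EBPδ-inducible cells by edgeR.

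GARS1, the glycine enzyme of both compartments, rose with the cytosolic class. Its levels in CTRL cells were 293, 299 and 310 CPM at 0 h and 500, 509 and 499 CPM at 24 h, a log2 fold change of 0.74 (SE 0.028). The C/EBPδ-inducible libraries were at 412, 423 and 419 CPM at 0 h, between 654 and 666 CPM at 8 h, and 538, 562 and 542 CPM at 24 h, so that the level was highest at 8 h. KARS1, the lysine enzyme that also serves both compartments, rose at none of the 3 times in either line. It was at 357, 383 and 361 CPM in CTRL cells at 0 h and at 363, 352 and 347 CPM at 24 h, and these libraries overlapped. At 48 h KARS1 fell to between 299 and 301 CPM in CTRL cells (log2 fold change -0.30, adjusted p = 9.96e-05 by edgeR). The C/EBPδ-inducible libraries of KARS1 held 403, 393 and 411 CPM at 0 h, 425, 430.5 and 420.4 CPM at 24 h and 393, 391 and 390.1 CPM at 48 h. Those at 24 h all lay above those at 0 h, with a log2 fold change of 0.08 that did not pass (adjusted p = 0.0296), and those at 48 h overlapped with 0 h (log2 fold change -0.05, adjusted p = 0.143).

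YARS1, the tyrosine enzyme, was at 264, 280 and 276 CPM in CTRL cells at 0 h and at 440, 441 and 446 CPM at 24 h. The C/EBPδ-inducible libraries held 348, 350 and 350 CPM at 0 h and 495, 504 and 505 CPM at 24 h. The log2 fold changes were 0.70 (SE 0.029) and 0.52 (SE 0.026), with no overlap between times. AARS1, the alanine enzyme, went from between 236 and 240 CPM to between 356 and 366 CPM in CTRL cells, a log2 fold change of 0.60, and from between 331 and 347 CPM to between 411 and 429 CPM in C/EBPδ-inducible cells, a log2 fold change of 0.32. MARS1, the methionine enzyme, rose by 0.67 and 0.41 on the same scale, and SARS1, the serine enzyme, by 0.52 and 0.14. EPRS1, IARS1, NARS1 and TARS1 rose by between 0.34 and 0.55 in CTRL cells and by between 0.22 and 0.39 in C/EBPδ-inducible cells.

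**Figure D2:**
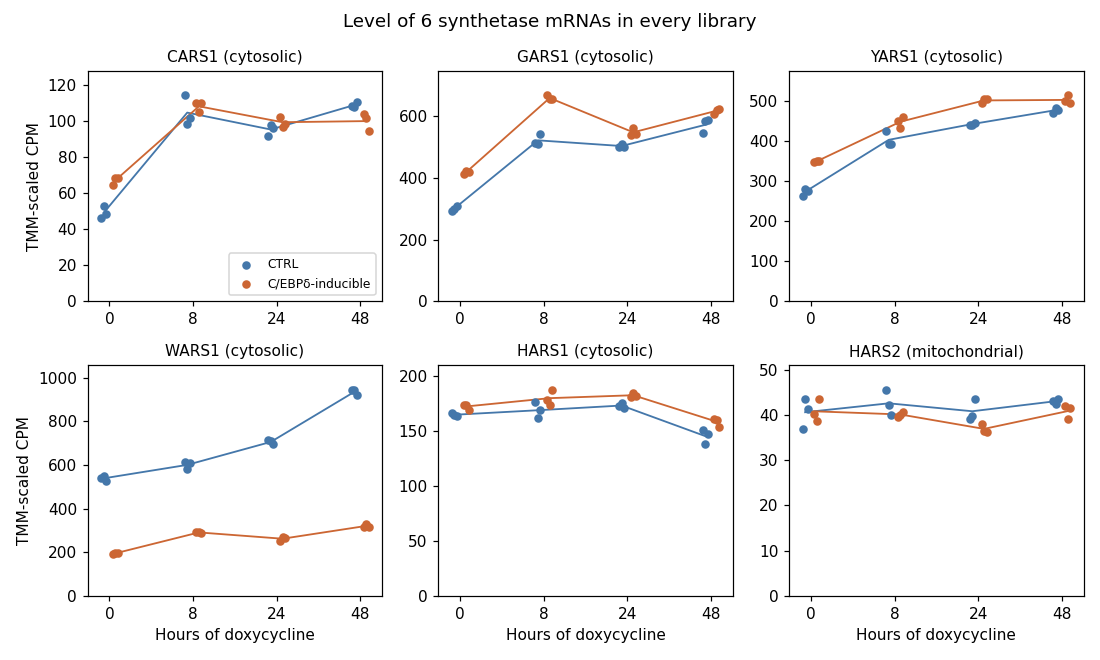
TMM-scaled CPM (y axes, from 0) of 6 synthetase mRNAs at 0, 8, 24 and 48 h of doxycycline (x axes), with each library as a point and lines through the means of 3 libraries, in CTRL (blue) and C/EBPδ-inducible cells (orange). CARS1, GARS1 and YARS1 are higher at every later time than at 0 h in both lines, WARS1 is lower in C/EBPδ-inducible cells at every time, and HARS2 stays between 36.2 and 45.6 CPM.

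The other cytosolic genes did not rise in this way. FARSA and FARSB encode both chains of the phenylalanine enzyme, and neither passed the test at 24 h in either line. FARSA fell by 0.54 on the log2 scale in CTRL and by 0.42 in C/EBPδ-inducible cells at 48 h, from 136, 135 and 140 CPM to 95.1, 93.6 and 95.0 CPM in CTRL cells, with no overlap. RARS1, HARS1, KARS1 and FARSB also fell in CTRL cells at 48 h, with log2 fold changes between -0.30 and -0.18. QARS1, the glutamine enzyme, passed at none of the 3 times in CTRL cells and was lower at 8 h in C/EBPδ-inducible cells (log2 fold change -0.28). LARS1 and VARS1 rose at 24 h in CTRL cells (log2 fold changes 0.20 and 0.16) and had values of 0.08 and 0.03 in C/EBPδ-inducible cells, which did not pass. The test of this difference did not pass either (adjusted p = 0.0612 and 0.0643). LARS1 rose at 48 h in both lines, by 0.34 in CTRL and 0.15 in C/EBPδ-inducible cells, and VARS1 fell by 0.26 in C/EBPδ-inducible cells at 8 h.

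HARS1 and HARS2, the cytosolic and mitochondrial histidine enzymes, lie head to head on chromosome 5, and their annotated exons share 108 bases. HARS1 exons also share 1090 bases with WDR55 on the other strand and 176 with DND1 on the same strand. HARS2 exons share 152 bases with ZMAT2 on the same strand, so the counts of both genes are uncertain. HARS1 was at 166, 164 and 163 CPM in CTRL cells at 0 h and at 172, 175 and 171 CPM at 24 h, an adjusted p of 0.149 by edgeR. HARS2 was at 36.9, 43.6 and 41.4 CPM at 0 h and at 39.2, 39.8 and 43.6 CPM at 24 h, with overlapping libraries. The C/EBPδ-inducible libraries of HARS1 held 174, 173 and 169 CPM at 0 h and 181, 184 and 182 CPM at 24 h, and those of HARS2 held 40.2, 38.7 and 43.5 CPM and 38.1, 36.5 and 36.2 CPM. The times did not overlap for either gene there, HARS1 being higher and HARS2 lower at 24 h, and neither passed the test (adjusted p = 0.0529 and 0.0642). At 48 h HARS1 fell by 0.18 on the log2 scale in CTRL and by 0.13 in C/EBPδ-inducible cells, and the value of HARS2 was 0.08 and -0.01, which did not pass.

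The cytosolic genes were also counted by their place in the multisynthetase complex. Of the 7 genes whose enzymes belong to it, 4 rose in CTRL cells at 24 h (EPRS1, IARS1, LARS1 and MARS1, median over the 7 genes 0.20), and of the 12 others 9 rose (median 0.45). The counts in C/EBPδ-inducible cells at 24 h were 3 of 7 (median 0.08) and 8 of 12 (median 0.27). Over all genes 2.81% were called higher at 24 h in CTRL and 7.33% in C/EBPδ-inducible cells. The catalytic folds of the enzymes form class I and class II. Of 9 class I genes 7 rose in CTRL cells at 24 h and of 9 class II genes 5 did, with EPRS1, which holds both folds, left out, and the medians were 0.34 and 0.38.

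The ratio of the classes within a library does not depend on how libraries are scaled to each other. The summed cytosolic CPM divided by the summed mitochondrial CPM was 5.22 ± 0.063 (SD, n = 3) in CTRL cells at 0 h, 6.53 ± 0.029 at 8 h, 6.67 ± 0.038 at 24 h and 7.08 ± 0.18 at 48 h. It was 5.91 ± 0.045 at 0 h, 7.29 ± 0.038 at 8 h, 6.86 ± 0.14 at 24 h and 6.84 ± 0.079 at 48 h in C/EBPδ-inducible cells. All later libraries lay above all 0 h libraries of their line. The sum of the mitochondrial genes was between 873 and 1000.2 CPM in all 24 libraries, and the cytosolic sum rose from a mean of 5089 to 6513 CPM at 24 h in CTRL and from 5436 to 6423 CPM in C/EBPδ-inducible cells. WARS1 weighs on the comparison of the lines. Without it the ratio was 4.67 in CTRL and 5.70 in C/EBPδ-inducible cells at 0 h, and 6.13 and 6.50 at 48 h, so that the order of the lines at 48 h turned.

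**Figure D3:**
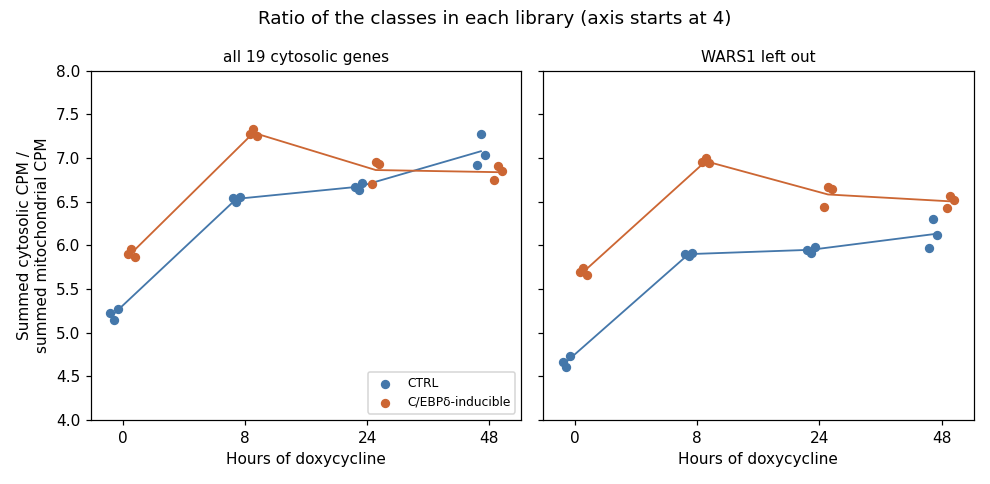
Ratio of the summed cytosolic to the summed mitochondrial CPM (y axis, from 4) in each library at 0, 8, 24 and 48 h of doxycycline (x axis), with all 19 cytosolic genes on the left and without WARS1 on the right. Points are libraries and lines join the means of 3. All libraries at 8, 24 and 48 h lie above the 0 h libraries of their line, and at 48 h the order of the lines changes when WARS1 is left out.

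Among the mitochondrial genes MARS2, the methionine enzyme, changed most. It was at 53.0, 54.5 and 55.3 CPM in CTRL cells at 0 h, at 50.0, 48.3 and 46.2 CPM at 24 h and at 32.9, 32.3 and 33.7 CPM at 48 h, where it fell by 0.72 on the log2 scale (SE 0.058, adjusted p = 1.69e-06 by edgeR). In C/EBPδ-inducible cells it went from 40.4, 41.1 and 42.2 CPM to 31.2, 29.9 and 31.4 CPM at 48 h and fell by 0.43 (SE 0.052). Its 48 h libraries lay below its 0 h libraries in both lines. CARS2 fell by 0.29 in CTRL cells at 48 h, and TARS2 rose at 48 h by 0.26 in CTRL and 0.20 in C/EBPδ-inducible cells. RARS2 rose by 0.26 in C/EBPδ-inducible cells at 8 h, where VARS2 and EARS2 fell by 0.15 and 0.16, and IARS2 rose by 0.10 at 48 h. DESeq2 called neither fall at 8 h, where edgeR called 15.8% of all genes lower. With any 1 library left out, 1 to 2 mitochondrial genes were called in that comparison, against 3. Of the 16 mitochondrial genes 13 in CTRL and 10 in C/EBPδ-inducible cells passed at none of the 3 times. The share of all genes that passed at none of these times was not counted, so these counts cannot be set against it.

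**Figure D4:**
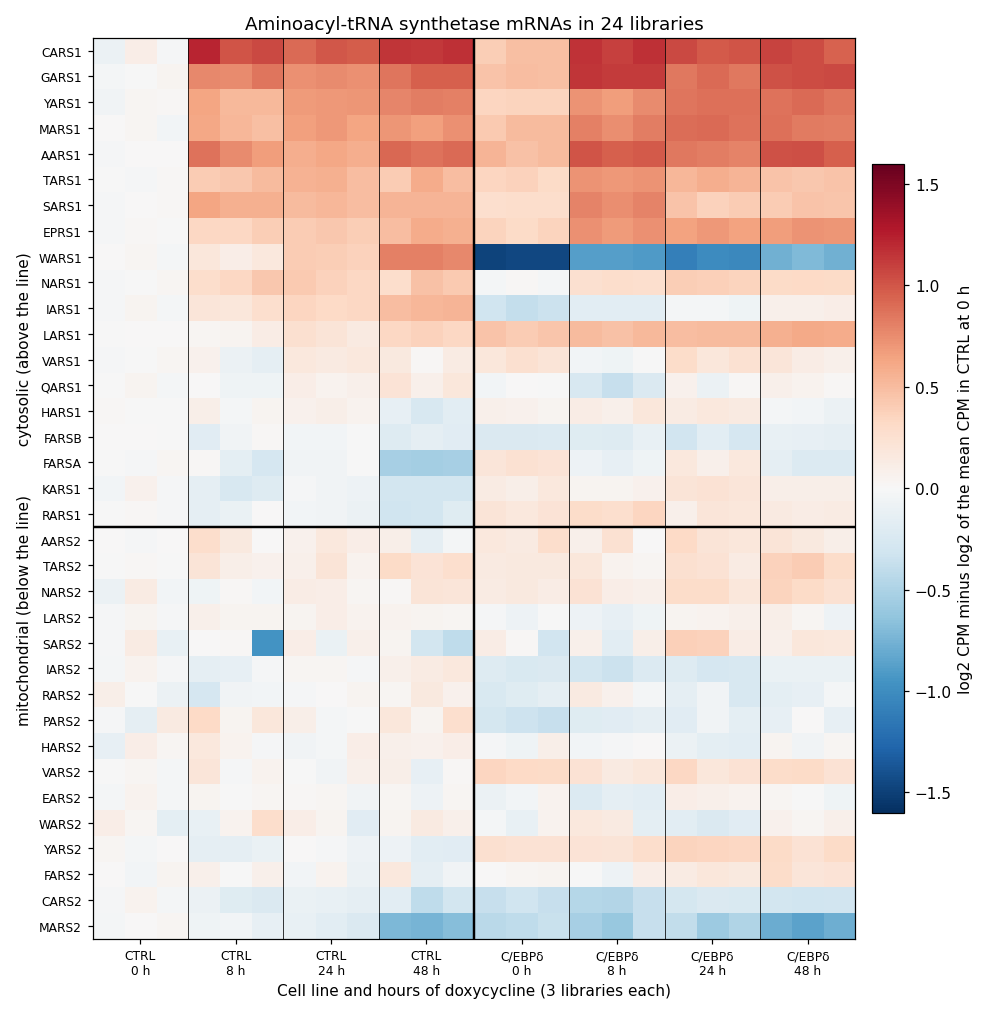
Log2 CPM of each gene (vertical) in each of 24 libraries (horizontal) minus the log2 of its mean CPM in CTRL cells at 0 h, with red for higher and blue for lower. Genes are ordered within a class by the change in CTRL cells at 24 h, with the 19 cytosolic genes above the heavy line and the 16 mitochondrial genes below it. CARS1, GARS1, YARS1 and MARS1 at the top are red at 8, 24 and 48 h in both lines, WARS1 is blue in all C/EBPδ-inducible libraries, and MARS2 is blue in both lines at 48 h. Colours in C/EBPδ-inducible cells also hold the difference between lines. At 0 h CARS1, GARS1, YARS1 and MARS1 were already higher there, by 0.34 to 0.47 on the log2 scale, and MARS2 was lower by 0.41.

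Other genes of tRNA charging and of the amino acid response were taken from lists that were chosen with earlier results of these data known. Of 11 amino acid response genes tested, 10 rose and none fell in CTRL cells at 24 h, and 9 rose and none fell in C/EBPδ-inducible cells, with medians of 0.84 and 0.74. The shares of all genes called higher at 24 h were 2.81% and 7.33%, and those called lower 3.25% and 8.14%. ASNS, which makes asparagine, rose by 1.39 and 0.96 on the log2 scale, CHAC1, which degrades glutathione, by 2.12 and 1.34, and TRIB3, a pseudokinase that restrains ATF4, by 1.01 and 1.57. ATF4 mRNA itself rose by 0.74 and 0.64. XPOT, which exports tRNAs from the nucleus, rose by 0.33 and 0.16, and with SSB it was 1 of 2 that rose among 6 genes of tRNA export and end processing in CTRL cells, where ELAC2, which cuts tRNA 3′ ends, fell by 0.16.

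The partners of the synthetases in translation were counted at each time. Of the 3 scaffold genes of the multisynthetase complex (AIMP1, AIMP2 and EEF1E1) AIMP2 rose in C/EBPδ-inducible cells by 0.15 at 8 h and 0.16 at 24 h, calls that DESeq2 did not make, and no other call was made in either line. At 24 h in CTRL cells 1 of the 3 had an unadjusted p under 0.05. Of 4 cytosolic elongation factors tested, 3 fell in C/EBPδ-inducible cells at 8 h (EEF1D by 0.25, EEF2 by 0.22 and EEF1A1 by 0.07), of which DESeq2 called 2, and 2 rose there at 24 h (EEF1A1 and EEF1B2, by 0.14 each). At 48 h EEF1A1 rose by 0.28 in CTRL and 0.33 in C/EBPδ-inducible cells, and EEF1D fell by 0.34 and 0.33. None of the 4 passed in CTRL cells at 8 or 24 h, where 1 had an unadjusted p under 0.05 at 8 h and none at 24 h. Over all genes of C/EBPδ-inducible cells 14.6% were called higher and 15.8% lower at 8 h, and 7.33% higher at 24 h. At 48 h the shares were 15.2% higher and 14.7% lower in CTRL, and 19.1% and 19.5% in C/EBPδ-inducible cells.

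Of 4 mitochondrial elongation factors GFM1 fell by 0.18 in CTRL cells at 24 h, and TUFM fell by 0.18 in C/EBPδ-inducible cells at 8 h. GFM2 rose at 8 h by 0.13 in C/EBPδ-inducible cells, and at 48 h by 0.20 in CTRL and 0.24 in C/EBPδ-inducible cells. DESeq2 called no rise in this list at 8 h or, in CTRL cells, at 48 h. None of the 4 genes of mitochondrial tRNA amidation and formylation passed at any time in either line, also by DESeq2, and at each time at most 1 gene in each direction had an unadjusted p under 0.05. Of the 4 eIF2α kinase genes none passed in CTRL cells at any time, also by DESeq2, where at 48 h 3 were higher at an unadjusted p under 0.05. In C/EBPδ-inducible cells EIF2AK1 fell by 0.11 at 8 h, and EIF2AK2 and EIF2AK3 rose by 0.29 and 0.35 at 48 h. EIF2AK4 (GCN2) had a log2 fold change of -0.02 in CTRL and -0.12 in C/EBPδ-inducible cells at 24 h, neither of which passed. Over all genes of CTRL cells 3.25% were called lower at 24 h and 15.2% higher at 48 h. In C/EBPδ-inducible cells 14.6% were called higher and 15.8% lower at 8 h, and 19.1% higher at 48 h.

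The second question was how the lines differed at the same time. At 0 h, of 19 cytosolic genes 13 had a higher level and 3 a lower level in C/EBPδ-inducible than in CTRL cells, beside 20.0% of all genes called higher and 23.9% called lower, and of the 16 mitochondrial genes 3 were higher and 5 lower. The medians were 0.21 and -0.04 on the log2 scale. These are differences between a pool of clones and CTRL cells in which many genes differed. In C/EBPδ-inducible cells CEBPD was higher, the keratins were lower and the synthetases differed in both directions, and their part in each other was not tested. At 24 h 9 cytosolic genes were higher and 4 lower (21.5% and 25.3% of all genes), at 8 h 9 and 3 (14.3% and 17.4%), and at 48 h 5 and 2 (17.6% and 20.7%). The mitochondrial counts were 1 and 3 at 8 h, 2 and 3 at 24 h, and 2 and 1 at 48 h, near or below these shares.

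WARS1 had the largest difference between lines of the 35 genes at 0 h. It was at 541, 549 and 527 CPM in CTRL cells at 0 h and at 193, 196 and 197 CPM in C/EBPδ-inducible cells, a log2 difference of -1.47 (SE 0.028, adjusted p = 4.65e-19 by edgeR). The difference was -1.05 at 8 h, -1.43 at 24 h and -1.55 at 48 h, and no library of the lines overlapped at any time. Within each line it rose, to 713, 708 and 696 CPM at 24 h and between 920 and 944 CPM at 48 h in CTRL cells, and to 253, 269 and 264 CPM and between 316 and 330 CPM in C/EBPδ-inducible cells. IARS1 was also lower in C/EBPδ-inducible cells at each time, with log2 differences between -0.43 and -0.35.

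AARS1 and MARS1 were higher in C/EBPδ-inducible cells at 0 h. AARS1 was at 236, 240 and 239 CPM in CTRL and at 347, 331 and 338 CPM in C/EBPδ-inducible cells, a log2 difference of 0.50 (SE 0.029). MARS1 was at 140, 142 and 135 CPM and at 186, 197 and 198 CPM, a difference of 0.47 (SE 0.035). The libraries of the lines did not overlap for either gene. LARS1, RARS1, EPRS1 and KARS1, all enzymes of the multisynthetase complex, were higher in C/EBPδ-inducible cells at all 4 times. The differences were between 0.25 and 0.43 for LARS1 and between 0.19 and 0.40 for RARS1. They were between 0.15 and 0.36 for EPRS1 and between 0.12 and 0.38 for KARS1. IARS1, of the same complex, was lower at each time.

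Of the mitochondrial genes MARS2, CARS2 and PARS2 had the largest differences at 0 h. MARS2 was lower in C/EBPδ-inducible cells by 0.41 on the log2 scale, CARS2 by 0.36 and PARS2, the proline enzyme, by 0.34 (adjusted p = 3.02e-07, 1.84e-07 and 0.00268 by edgeR). CARS2 was at 89.9, 94.7 and 89.4 CPM in CTRL and at 70.7, 73.3 and 71.0 CPM in C/EBPδ-inducible cells. PARS2 was at 13.7, 12.6 and 15.4 CPM and at 11.4, 11.0 and 10.8 CPM. In all 3 genes the C/EBPδ-inducible libraries lay below the CTRL libraries. YARS2, the tyrosine enzyme, was higher in C/EBPδ-inducible cells at all 4 times, by between 0.23 and 0.42, and VARS2 at 0 h by 0.32.

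The third question was whether the change over time differed between the lines, tested as the interaction of line and time. At 24 h 7 cytosolic genes had a smaller change in C/EBPδ-inducible cells and none a larger one (2.98% and 2.86% of all genes), whereas 1 cytosolic gene had an unadjusted p under 0.05 in the larger direction, and DESeq2 gave the same counts of 7 and 0. The 7 were AARS1, CARS1, GARS1, MARS1, SARS1, TARS1 and YARS1. The interaction was -0.39 for CARS1 (SE 0.063, adjusted p = 0.000115), -0.37 for SARS1 (SE 0.043, adjusted p = 1.06e-06) and -0.35 for GARS1 (SE 0.038, adjusted p = 4.65e-07) by edgeR. The class median was -0.08. At 48 h 9 cytosolic genes had a smaller and 2 a larger change (2.72% and 2.83% of all genes), EPRS1 and LARS1 joining the 7 on one side and KARS1 and FARSB forming the other, and the median was -0.20. At 8 h WARS1 alone passed, with a larger change in C/EBPδ-inducible cells (0.41, SE 0.048), beside 0.887% of all genes. At that time 8 cytosolic genes had an unadjusted p under 0.05 in the smaller direction and 2 in the larger. CARS1 (-0.41, adjusted p = 0.0102) and AARS1 (-0.30, adjusted p = 0.0111) narrowly missed the threshold by edgeR. DESeq2 called 2 cytosolic genes with a smaller and 1 with a larger change.

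The interaction uses the same 0 h libraries as the difference between lines at 0 h, and the values belong side by side. All 7 genes were higher in C/EBPδ-inducible cells at 0 h, by between 0.27 and 0.50 on the log2 scale. At 24 h the difference between lines was 0.05 for CARS1 (95% interval -0.02 to 0.13) and 0.00 for TARS1, which did not pass, 0.12 for GARS1, 0.18 for YARS1, and 0.22 for AARS1 and MARS1. SARS1 was lower in C/EBPδ-inducible cells at 24 h by 0.11 (adjusted p = 0.00681 by edgeR), at 224, 210 and 216 CPM against 232, 235 and 230 CPM in CTRL cells. Its 0 h libraries held 196, 198 and 197 CPM in C/EBPδ-inducible and 160, 163 and 165 CPM in CTRL cells. A smaller change in C/EBPδ-inducible cells therefore started from a higher level and ended at a level that differed from CTRL cells by 0.22 or less in all 7 genes.

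**Figure D5:**
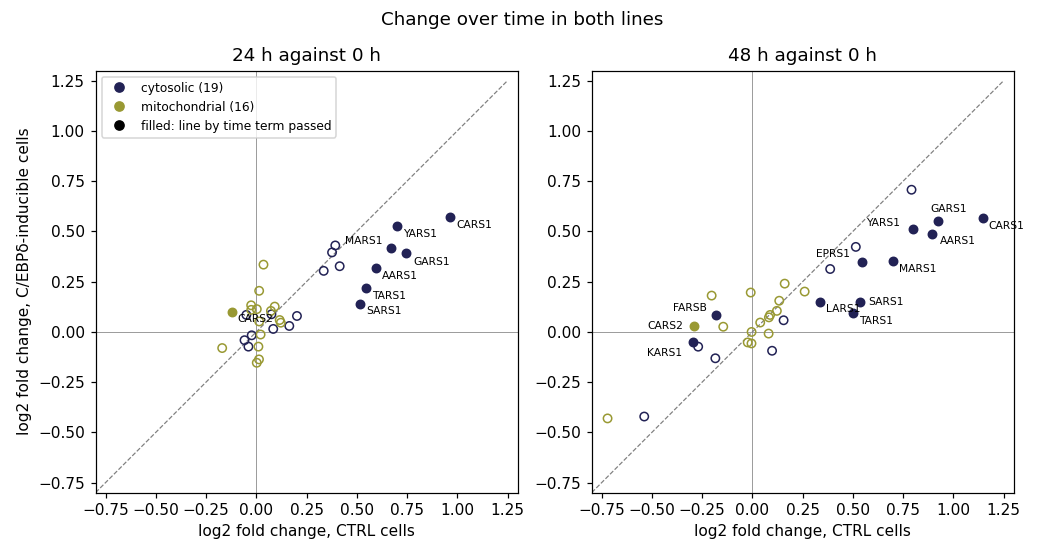
Log2 fold change against 0 h in C/EBPδ-inducible cells (y axis) and in CTRL cells (x axis) at 24 h (left) and 48 h (right), each point a gene, filled and named where the interaction of line and time had an adjusted p under 0.01, with the dashed line where both changes are equal. The 7 named cytosolic genes at 24 h lie below the dashed line, and CARS2 lies above it.

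Among the mitochondrial genes CARS2 alone had an interaction that passed, of 0.23 at 24 h (SE 0.051, adjusted p = 0.00348) and 0.31 at 48 h (SE 0.073, adjusted p = 0.00871) by edgeR. CARS2 had a log2 fold change of -0.12 in CTRL and 0.10 in C/EBPδ-inducible cells at 24 h, neither of which passed. At 24 h it was at 84.7, 83.7 and 82.6 CPM in CTRL and at 75.2, 77.8 and 76.8 CPM in C/EBPδ-inducible cells. Its call at 24 h was lost when any of 5 libraries was left out, with values between 0.21 and 0.23 (CTRL 0 h replicate 2 and 24 h replicate 3, C/EBPδ-inducible 0 h replicates 1 and 3 and 24 h replicate 2). The call at 48 h was lost without any of 11 of the 12 libraries, under the replicate block and with library totals in place of TMM. At 8 h no mitochondrial gene passed, 5 had an unadjusted p under 0.05 (1 larger and 4 smaller), and DESeq2 called 0. Of the 11 amino acid response genes tested at 24 h, 4 had a smaller change in C/EBPδ-inducible cells, among them CHAC1 (-0.77) and ASNS (-0.42), and 1 a larger one, TRIB3 (0.57). Over all genes 2.98% were called with a smaller and 2.86% with a larger change.

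Overlapping genes limit some of these values, since the strand setting of the counting is not given in the sources used here. Annotated exons of 17 of the 35 genes overlapped exons of a gene on the other strand and those of 4 genes overlapped a gene on the same strand. MARS1 shared 355 bases with DDIT3, an amino acid response gene on the other strand whose log2 fold change was 0.77 in CTRL cells at 24 h. SARS2 shared 1492 bases with a gene on its own strand, and its count is uncertain. Among the 9 cytosolic genes without any overlap, 6 rose and none fell in CTRL cells at 24 h (median 0.34), and among the 8 such mitochondrial genes none passed (median 0.01, with 1 in each direction at an unadjusted p under 0.05). For C/EBPδ-inducible cells at 24 h it was 5 of 9 (median 0.14) and 0 of 8 (median 0.05, with 2 higher at an unadjusted p under 0.05). Over all genes 2.81% were called higher at 24 h in CTRL and 7.33% in C/EBPδ-inducible cells. At 48 h in C/EBPδ-inducible cells the median without overlap was 0.09 in both classes. There 5 of 9 cytosolic genes rose and none fell, and 2 of 8 mitochondrial genes rose and 1 fell (19.1% and 19.5% of all genes). In CTRL cells at 48 h these medians were 0.39 and 0.04.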

How the data were processed

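The deposited values are raw read counts per Ensembl gene. Per the labels and the methods of the study, the authors sequenced rRNA-depleted total RNA, and the submitters' processing notes name Trimmomatic 0.36, HISAT2 2.3.4.3, HTSeq and GRCh38. The methods of the study name other versions of Trimmomatic and HISAT2. The strand setting of the counting is not given in the sources used here. The libraries held 12731237 to 22598595 counts. Names, exon overlaps and transcript lengths came from GENCODE 44, which matched 56558 of 60675 identifiers.

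Genes with low counts were removed in each comparison by filterByExpr, libraries were scaled by TMM, and all remaining genes were tested with edgeR 4.0.16 (R 4.3.3) by the quasi-likelihood test with Benjamini-Hochberg adjustment and a threshold of 0.01. There were 13 comparisons: each time against 0 h in each line, the lines against each other at 4 times, and the interaction of line and time at 3 times. Groups came from the labels, and a fit held only the groups compared. Standard errors are the log2 fold change divided by the square root of the F statistic, and 95% intervals follow from them. Levels per kb used the Ensembl canonical transcript. The fits were tested on simulated data. DESeq2 1.42.0, analysis of variance on log2(CPM + 1), other scalings, no filter, a threshold of 0.05, a model of 24 libraries, the replicate block and leaving out each library were the alternatives. The reported fits hold no replicate block. Deviations of same-numbered libraries correlated above 0.1 in every pair only in CTRL cells at 24 h against 0 h (r between 0.143 and 0.19). The estimates, standard errors and adjusted p-values printed for that comparison do not use this pairing. Its counts under the block were the same, 13 and 0.

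Members and lists were chosen with earlier results of these data known. Values per library are given, at the times the text describes, for the 3 genes of each class with the largest called change, without overlap of libraries, at 24 h in either line, between lines at 0 h or, called, in the interaction at 24 h, and for GARS1, KARS1, HARS1 and HARS2. Of the other lists up to 3 called genes are named. Other genes with values (such as FARSA, IARS1, RARS1, ATF4 and EIF2AK4) were picked after their values were seen. Promoter windows of 300 bases came from RefSeq and were searched with exact letters on both strands.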

Additional observations from a re-analysis of the deposited data

Results flagged for a closer look

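The change over time differed between the lines, by the interaction of line and time (edgeR's quasi-likelihood test, C/EBPδ-inducible minus CTRL on the log2 scale), in the following genes. At 8 h it was WARS1 (0.41, adjusted p = 0.000129). At 24 h the change was smaller in C/EBPδ-inducible cells for CARS1 (-0.39, adjusted p = 0.000115), SARS1 (-0.37, 1.06e-06), GARS1 (-0.35, 4.65e-07), TARS1 (-0.32, 2.75e-06), AARS1 (-0.27, 2.22e-05), MARS1 (-0.25, 0.000464) and YARS1 (-0.17, 0.00395), and it was larger for CARS2 (0.23, 0.00348). At 48 h it was smaller for CARS1 (-0.59, adjusted p = 1.75e-05), AARS1 (-0.41, 5.97e-06), TARS1 (-0.41, 6.07e-05), SARS1 (-0.40, 8.65e-06), GARS1 (-0.38, 2.44e-05), MARS1 (-0.35, 0.000163), YARS1 (-0.29, 0.000209), EPRS1 (-0.21, 0.00565) and LARS1 (-0.20, 0.00458). It was larger at 48 h for CARS2 (0.31, adjusted p = 0.00871), FARSB (0.26, 0.00105) and KARS1 (0.24, 0.00252). The call of CARS2 at 24 h was lost without any of 5 single libraries, and that at 48 h without any of 11 of the 12. The 3 times share the 0 h libraries of both lines, so a gene named at 24 and 48 h is not seen in independent comparisons.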

How the results depend on the processing

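For the 13 genes chosen by the rule above, none of the called values turned its direction under any alternative. These values were those at 24 h against 0 h in each line, between lines at 0 h and in the interaction at 24 h. Directions of other called genes were not compared one by one. Over the alternatives 315 of 378 counts of called members stayed within 1.5 times the reported count, while 63 moved. The counts of called cytosolic genes over time stayed within 1.5 times in both lines. At a threshold of 0.05 the mitochondrial counts were 2 in CTRL cells at 24 h and 5 at 48 h, 1 (24 h) and 6 (48 h) in C/EBPδ-inducible cells, 7, 10 and 6 between lines at 8, 24 and 48 h, and 1 and 2 for the interaction at 8 and 48 h, and the cytosolic counts were 11 between lines at 48 h and 6 for the interaction at 8 h. With library totals in place of TMM they were 1 (C/EBPδ-inducible, 8 h), 6 (48 h) and 0 (interaction, 48 h) for mitochondrial and 3 (interaction, 8 h) for cytosolic genes. DESeq2 gave 1 mitochondrial gene in C/EBPδ-inducible cells at 8 h, 5 between lines at 0 h and 3 cytosolic genes for the interaction at 8 h. Analysis of variance gave 8 cytosolic and 3 mitochondrial genes between lines at 24 h. The model of 24 libraries gave 5 mitochondrial genes in CTRL cells at 48 h, 1 in C/EBPδ-inducible cells at 8 h, 7 between lines at 8 h and 0 for the interaction at 24 h, and 11 cytosolic genes between lines at 48 h and 5 for the interaction at 8 h. Without a filter the interaction gave 3 cytosolic genes and 1 mitochondrial gene at 8 h and 0 mitochondrial genes at 24 h. The causes were not tested.

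With the replicate block the mitochondrial counts fell to 1 in CTRL cells at 48 h, 2 between lines at 8 h and 0 for the interaction at 48 h, and the cytosolic count in CTRL cells at 8 h was 7 against 10. Outside CTRL cells at 24 h no comparison had same-numbered libraries that correlated above 0.1 in every pair. Correlations were weakly positive in every pair in C/EBPδ-inducible cells at 8 h (r between 0.018 and 0.063) and 48 h (0.040 and 0.155). The same held between lines at 8 h (0.051 and 0.079) and 48 h (0.022 and 0.094). Whether the numbers mark pairs there is not known.

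Leaving out 1 library at a time gave these ranges. In CTRL cells they were 8 to 11, 13 and 15 to 17 cytosolic and 0, 0 to 1 and 1 to 4 mitochondrial genes at 8, 24 and 48 h. In C/EBPδ-inducible cells they were 14 to 15, 10 to 11 and 12 to 15 cytosolic and 1 to 2, 0 and 2 to 4 mitochondrial genes. Between lines at 0, 8, 24 and 48 h they were 15 to 16, 7 to 14, 12 to 13 and 6 to 7 cytosolic and 6, 2 to 5, 4 to 6 and 2 to 5 mitochondrial genes. For the interaction at 8, 24 and 48 h they were 1 to 5, 6 to 7 and 9 to 11 cytosolic and 0 to 1 mitochondrial genes each time. The cytosolic count between lines at 8 h was 7 in place of 12 without CTRL 8 h replicate 2 or C/EBPδ-inducible 8 h replicate 1 or 3, and the mitochondrial count there was 2 in place of 4 without any of the 3 C/EBPδ-inducible 8 h libraries. The interaction at 8 h gave 5 cytosolic genes and 1 mitochondrial gene without CTRL 8 h replicate 3, 3 cytosolic genes without CTRL 8 h replicate 1 and 2 without CTRL 0 h replicate 2. The mitochondrial count in CTRL cells was 1 at 24 h without 0 h replicate 1 and 1 at 48 h without 0 h replicate 2 or 48 h replicate 3, it was 1 in C/EBPδ-inducible cells at 8 h without 8 h replicate 3, and it was 5 between lines at 48 h without CTRL 48 h replicate 1. The call of CARS2 in the interaction at 48 h was lost without any of 11 of the 12 libraries, the exception being CTRL 48 h replicate 1.

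Of 433 values of the 13 genes chosen by rule 403 kept their side of the threshold. YARS1 in the interaction at 24 h missed it under 10 alternatives (values between -0.17 and -0.14), CARS2 under 7, SARS1 in C/EBPδ-inducible cells at 24 h under 5, PARS2 between lines at 0 h under 4 (-0.34 to -0.27), KARS1 there under 3 and AARS1 in C/EBPδ-inducible cells at 24 h under analysis of variance. Of 352 class medians 17 moved by more than the spread, and the mitochondrial median between lines at 0 h was 0.02 with library totals, against -0.04. Library totals moved the median over all genes by up to 0.0816. Counts as low as 61 per library limit what could be seen in the least abundant mitochondrial genes.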
